A study of Mus musculus with 8 samples.

Results

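The kappa chain variable genes were read out across the lungs of control mice and of the COPD mice model. The members were chosen by name and gene type alone: every gene whose symbol begins with Igkv and whose type is IG_V_gene in GENCODE release M21 of the mouse genome GRCm38. This gave 100 members among the 52636 genes counted, and the 60 Igkv genes annotated as pseudogenes were left out. All 100 had at least 1 count in some library, and 82 had a count in all 8 libraries. The values are raw read counts, turned into CPM (counts per 1000000 counts of the library) or into the share of each gene in the summed Igkv counts of its library.

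Whole lung RNA was sequenced from male wild-type C57BL/6 mice in 4 groups of 2 libraries. Control mice were given PBS, whereas porcine pancreatic elastase (PPE, called elastase in the labels) followed by lipopolysaccharide (LPS) made the COPD mice model. Each was fed the control diet or a diet with 2% TJ-41 (hochuekkito, a Japanese herbal medicine), and the groups are written PBS/control, PBS/TJ-41, COPD/control and COPD/TJ-41 after treatment and diet. Diets began at 8 weeks of age, the PPE or PBS dose followed at 10 weeks, and LPS or PBS doses started at 12 weeks. The time at which lung RNA was taken is not given in the sources used here. The labels do not say that 2 libraries of a group came from separate animals, so the p-values measure the spread between these libraries, which may be technical.

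A kappa light chain is made from a variable gene joined by DNA recombination to a joining gene (Igkj) on chromosome 6, and the transcript is then spliced to the single constant gene Igkc. Each B cell normally settles on a single variable gene, and all its descendants carry it, so that a clone of antibody-secreting plasma cells gives many transcripts of the same Igkv gene. Resting B cells transcribe light chain genes weakly and plasma cells transcribe them at very high rates. Since whole lung was sequenced, more cells of a type and more RNA per cell cannot be told apart in any value below.

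The members lie on chromosome 6 between 67555497 and 70704177 (GRCm38), a span of 3149 kb, with 38 on the plus and 62 on the minus strand. Igkj1 follows at 70722562 to 70722599 and Igkc at 70726435 to 70726966. Each variable gene has a short exon for most of the leader peptide, followed by an exon for the variable domain. The last 120 bases of the variable domain exon, all of them coding, are shown here for the genes on which the results turn, because they hold the end of the framework and the germline start of the third complementarity-determining loop, and because they show how alike neighbouring members are. Sequences are those of GENCODE M21 transcripts on GRCm38, written 5′ to 3′ on the coding strand. Capitals mark bases that differ from the first gene of the same set.

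The first set holds the gene with the highest mean share, Igkv1-117 (chr6:68121708-68121827, plus strand), with Igkv1-110 (chr6:68271148-68271267, plus strand) and Igkv1-135 (chr6:67610389-67610508, plus strand), which are also among the 10 most used genes.
Igkv1-117: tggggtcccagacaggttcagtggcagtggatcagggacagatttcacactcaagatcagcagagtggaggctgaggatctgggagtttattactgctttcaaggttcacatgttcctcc
Igkv1-110: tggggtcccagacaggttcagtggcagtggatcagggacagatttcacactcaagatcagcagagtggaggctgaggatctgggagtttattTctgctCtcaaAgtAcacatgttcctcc
Igkv1-135: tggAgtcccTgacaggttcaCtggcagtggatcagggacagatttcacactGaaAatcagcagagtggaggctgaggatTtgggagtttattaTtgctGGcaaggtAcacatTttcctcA
Within this stretch Igkv1-110 differed from Igkv1-117 at 4 bases and Igkv1-135 at 12. Over the whole transcript, Igkv1-117 and Igkv1-110 were identical at 391 of 401 aligned bases (97.51%).

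The second set holds Igkv10-96 (chr6:68631963-68632082, minus strand), the gene with the next highest mean share, and its relative Igkv10-94 (chr6:68704508-68704627, minus strand), which differed at 12 bases.
Igkv10-96: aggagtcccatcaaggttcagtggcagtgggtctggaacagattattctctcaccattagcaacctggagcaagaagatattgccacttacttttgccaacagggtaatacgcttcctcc
Igkv10-94: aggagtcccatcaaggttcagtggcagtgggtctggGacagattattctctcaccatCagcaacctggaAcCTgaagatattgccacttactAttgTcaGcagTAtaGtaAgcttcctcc

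The third set holds 3 members of the Igkv14 family that were called higher in the COPD mice model: Igkv14-126 (chr6:67896523-67896642), Igkv14-111 (chr6:68256750-68256869) and Igkv14-100 (chr6:68519358-68519477), all on the plus strand. Igkv14-111 differed from Igkv14-126 at 14 bases and Igkv14-100 at 22.
Igkv14-126: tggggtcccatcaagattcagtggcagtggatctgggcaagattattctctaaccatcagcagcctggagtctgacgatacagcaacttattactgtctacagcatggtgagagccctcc
Igkv14-111: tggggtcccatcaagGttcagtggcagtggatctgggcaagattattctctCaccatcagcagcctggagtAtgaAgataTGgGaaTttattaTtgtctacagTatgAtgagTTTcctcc
Igkv14-100: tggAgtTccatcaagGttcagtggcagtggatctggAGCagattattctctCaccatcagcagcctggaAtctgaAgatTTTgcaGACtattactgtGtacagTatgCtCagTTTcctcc

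The last set holds Igkv3-12 (chr6:70518730-70518849, plus strand), the only gene called between the diets in the COPD mice model, and Igkv3-10 (chr6:70573111-70573230, plus strand), which differed at 13 bases.
Igkv3-12: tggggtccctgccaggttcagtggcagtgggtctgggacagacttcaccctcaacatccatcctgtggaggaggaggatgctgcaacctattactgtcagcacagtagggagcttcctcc
Igkv3-10: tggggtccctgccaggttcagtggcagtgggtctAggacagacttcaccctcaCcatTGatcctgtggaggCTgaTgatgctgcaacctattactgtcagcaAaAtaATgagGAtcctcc

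This likeness bears on the counts. Of the 100 members, 22 shared no run of 50 bases with any other annotated transcript, 67 shared 10% or more of their 50-base runs, and 12 shared more than 50% with another Igkv gene. Igkv1-117 shared 49.9% and Igkv1-110 50.9% of theirs, so reads could be split between these genes, and how the authors counted reads that match several genes is not given in the sources used here. Igkv14-126, Igkv14-111, Igkv14-100 and Igkv12-89 shared none.

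Libraries held 18767295 to 20888042 counts on genes, which makes 3 counts, the upper limit that a count of 0 allows, 0.153 to 0.162 CPM. Replicates were less alike for Igkv genes than for other genes: the median biological coefficient of variation was 0.479 over the 79 members tested and 0.199 over all genes tested. The replicate 2 library of COPD/control mice stood apart in several measures. Over all genes, the SD of the log2 difference between the libraries of its group was 0.798, against 0.394 to 0.469 in the other groups. Its summed markers of lung epithelium and endothelium stood at 67971 CPM, against 33173 to 47456 CPM in the other 7 libraries, and its Igkv to Igkc count ratio was 0.588, against 1.29 to 1.87.

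The summed Igkv level was lowest in PBS/control mice, higher in PBS/TJ-41 mice and highest in the COPD mice model. The 100 members together gave 172 and 189 CPM in PBS/control mice, 418 and 390 CPM in PBS/TJ-41 mice, 1423 and 943 CPM in COPD/control mice, and 2229 and 697 CPM in COPD/TJ-41 mice. In counts, the sums ran from 3296 to 42735, which is 0.0175% to 0.226% of all counts of a library. Each library of the COPD mice model was above each library of control mice, and each control library on TJ-41 was above each on the control diet. The 2 libraries of COPD/TJ-41 mice lay on either side of the pair on the control diet. Group means were 181 ± 11.8 CPM in PBS/control mice, 404 ± 19.2 in PBS/TJ-41 mice, 1183 ± 339 in COPD/control mice and 1463 ± 1084 in COPD/TJ-41 mice (SD, n = 2 each).

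**Figure D1:**
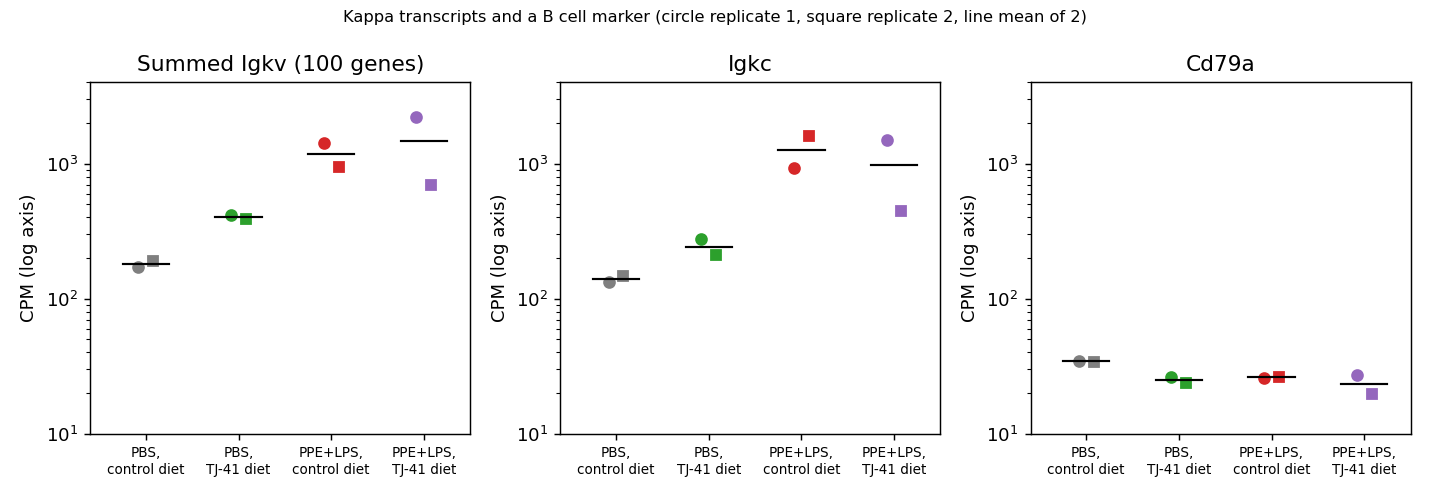
CPM (log axis) of the 100 summed Igkv genes, of the constant gene Igkc and of the B cell marker Cd79a in each library, by group, with circles for replicate 1, squares for replicate 2 and lines for the mean of 2. Summed Igkv and Igkc are higher in all 4 libraries of the COPD mice model than in the 4 control libraries, while Cd79a lies between 19.6 and 34.4 CPM throughout.

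The ratio of group means was 6.54 for COPD/control over PBS/control mice (log2 2.71) and 3.62 for COPD/TJ-41 over PBS/TJ-41 mice (log2 1.86). Over both diets it was 4.53 (log2 2.18), and it stayed between log2 1.80 and 2.40 when any single library was left out. Without the replicate 2 library of COPD/control mice, it was log2 2.31. For TJ-41 over the control diet the ratio was 2.23 in control mice (log2 1.16). In the COPD mice model it was 1.24 (log2 0.31), and without replicate 1 on TJ-41 its sign turned (log2 -0.76), so no direction is read from it. A sum over chosen members was given no test, and with 2 libraries against 2 an exact permutation test cannot go below a two-sided p of 0.333.

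Member by member, the shift toward the COPD mice model was broad. Mean CPM was higher in the COPD mice model for 97 of the 100 members, against 49.6% of the 35466 genes with a count. For 30 members (30.0%) all 4 libraries of the COPD mice model lay above all 4 control libraries, against 2.26% of all genes with a count, and for 0 members they all lay below, against 2.46%. Without the replicate 2 library of COPD/control mice, 36 members lay above and 0 below. The 30 members do not behave as 30 separate observations, since all share the same 8 libraries and some share reads.

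For testing, edgeR's quasi-likelihood test was run over all 20546 genes that passed the filter on low counts, with a call at a Benjamini-Hochberg adjusted p under 0.05 and a log2 fold change beyond 1. Of the 100 members 79 passed the filter, and they held at least 98.6% of the Igkv counts of every library. Of these 79, 12 did not reach the minimum level of 0.526 CPM in at least 2 control libraries, so they passed through the group in which they were high. The 21 members left out had at most 86 counts in any library, reached by Igkv3-1 at 4.48 CPM, and 18 of the 21 had a higher mean CPM in the COPD mice model.

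With both diets together, 17 of the 79 members were called for the COPD mice model against control mice, all of them higher, where 0.443% of all genes tested were called. The median log2 fold change was 2.17 over the 79 members and -0.0017 over all genes tested. At an unadjusted p under 0.05, 65 members were higher and 0 lower, against 6.18% of all genes higher and 10.4% in either direction. These tallies include the 12 members that did not reach the minimum level in 2 control libraries. Over the 67 that did, 17 were called, 54 were higher and 0 lower at an unadjusted p under 0.05, and the median log2 fold change was 2.00. Over the 79 members tested, 29 (36.7%) lay above in the COPD mice model without overlap, against 3.35% of all genes tested. The 17 had log2 fold changes from 1.16 to 4.95. For 14 of them the treated and control libraries did not overlap, which their selection on the same libraries favours. The number called depended on single libraries. Fewer members were called without any single control library or without replicate 1 of COPD/TJ-41 mice. More were called without either library of COPD/control mice or without replicate 2 of COPD/TJ-41 mice. The number called over all genes moved the same way, and more members passed the filter. These fits leave a single library in a group, so their counts are not given.

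Igkv14-126 (ENSMUSG00000094345, chr6:67896172-67896642) had the largest change among the 17. It stood at 0.314 and 1.56 CPM in PBS/control mice, 1.33 and 2.05 CPM in PBS/TJ-41 mice, 62.9 and 14.4 CPM in COPD/control mice, and 44.1 and 34.7 CPM in COPD/TJ-41 mice. Every library of the COPD mice model was thus above every control library, and the lowest control value rests on 6 counts. The log2 fold change over both diets was 4.95 (SE 0.55, adjusted p = 0.00578 with edgeR's quasi-likelihood test).

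Its family member Igkv14-111 (ENSMUSG00000095771, chr6:68256389-68256869) stood at 2.51 and 3.22 CPM in PBS/control mice, 6.92 and 4.92 in PBS/TJ-41 mice, 38.0 and 70.3 in COPD/control mice, and 101 and 26.3 in COPD/TJ-41 mice. Again the groups did not overlap (log2 fold change 3.83, SE 0.43, adjusted p = 0.00601). Igkv14-100 (chr6:68519012-68519477), between 0.919 and 2.91 CPM in control mice and between 5.11 and 11.3 CPM in the COPD mice model, rose by a log2 fold change of 2.16 (SE 0.23, adjusted p = 0.00529). The remaining member of the family, Igkv14-130, had 0 to 10 counts and was not tested.

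Igkv12-89 (chr6:68834846-68835307) rose by a log2 fold change of 4.62 (SE 0.65, adjusted p = 0.0203). Its level was 1.41 and 0.415 CPM in PBS/control mice, 1.02 and 1.08 in PBS/TJ-41 mice, 43.3 and 15.2 in COPD/control mice, and 5.84 and 34.6 in COPD/TJ-41 mice. No control library reached the lowest library of the COPD mice model, although the levels on TJ-41 were far apart. Igkv6-15 (chr6:70406469-70406992), another of the 5 most used genes, stood at 4.24 to 12.04 CPM in the control libraries and at 26.6 to 80.0 CPM in those of the COPD mice model (log2 fold change 3.09, SE 0.40, adjusted p = 0.0121).

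**Figure D2:**
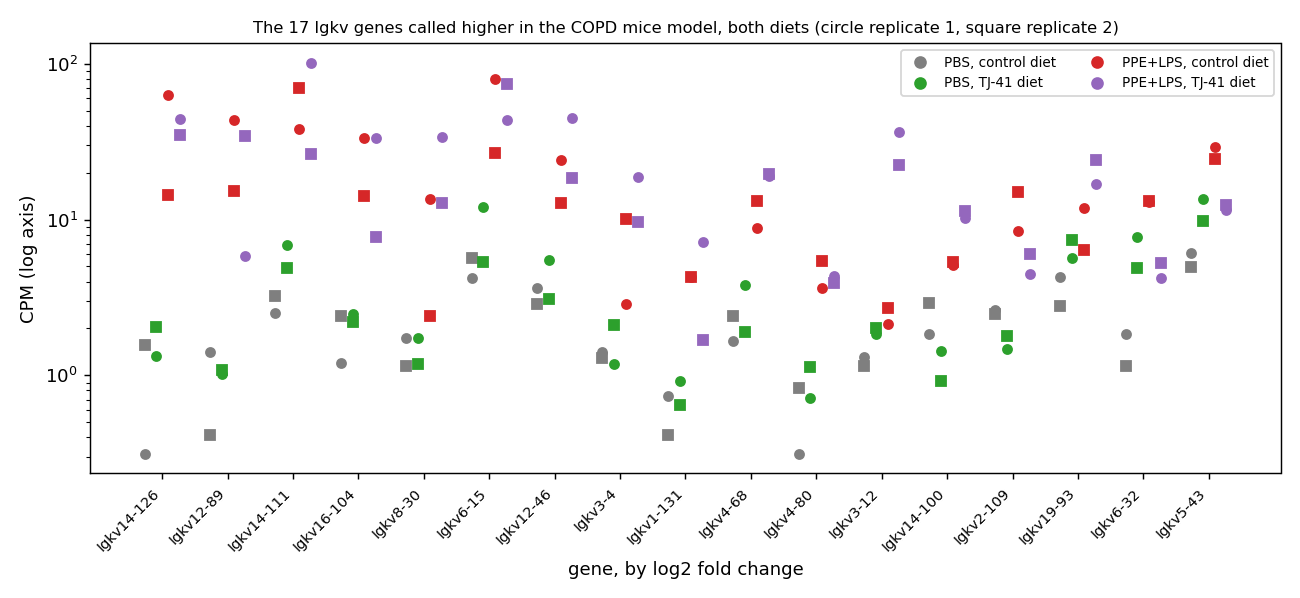
CPM (log axis) in each library for the 17 Igkv genes called higher in the COPD mice model over both diets, ordered by log2 fold change from Igkv14-126 to Igkv5-43, with circles for replicate 1 and squares for replicate 2. The red and purple points of the COPD mice model lie above the grey and green control points without overlap for 14 of the 17 genes.

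Among the other 12, Igkv16-104 (3.43), Igkv8-30 (3.23), Igkv12-46 (2.68), Igkv3-4 (2.68), Igkv1-131 (2.68), Igkv4-68 (2.60), Igkv4-80 (2.56), Igkv3-12 (2.46) and Igkv2-109 (1.94) rose without overlap between libraries, by the log2 fold changes given. Igkv19-93 (1.51), Igkv6-32 (1.36) and Igkv5-43 (1.16) were also called, with libraries that overlapped. Of the 17, 7 shared no 50-base run with another transcript, and 2 shared over 50%. The Igkv3-12 call held in all 16 alternative fits, that of Igkv4-68 in 15 and that of Igkv14-100 in 14. Igkv3-12 rose more on TJ-41 alone (3.94) than over both diets (2.46), so its call rests mostly on the mice fed TJ-41. Igkv19-93 and Igkv6-32 lost the call in 9 of 16.

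Several heavily used genes were not called. Igkv1-117 stood at 13.4 and 14.3 CPM in PBS/control mice, 89.6 and 41.7 in PBS/TJ-41 mice, 313 and 158 in COPD/control mice, and 413 and 47.8 in COPD/TJ-41 mice. The lowest library of the COPD mice model fell below the highest of control mice (log2 fold change 2.95, SE 0.59, adjusted p = 0.0833). Igkv1-110 (1.24, SE 0.27, adjusted p = 0.112), Igkv1-135 (2.23, SE 0.43, adjusted p = 0.0692) and Igkv10-96 (2.23, SE 0.54, adjusted p = 0.147) also missed the threshold. Replicates of Igkv15-103 lay far apart, at 28.3 and 12.5 CPM in COPD/control mice and at 143 and 3.63 CPM in COPD/TJ-41 mice (log2 fold change 3.05, SE 0.86, adjusted p = 0.228). Igkv4-53 had the largest fold change among uncalled members whose libraries did not overlap (4.27, SE 0.82, adjusted p = 0.0692). Igkv4-59 (1.27, SE 0.74, adjusted p = 0.591) and Igkv4-57-1 (1.15, SE 0.69, adjusted p = 0.597) had the weakest evidence among the 10 most used.

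On the control diet alone, 2 of the 79 members were called higher in the COPD mice model, where 0.122% of all genes tested were called. They were Igkv5-43 (chr6:69823355-69823943), at 6.12 and 4.93 CPM in control mice and 29.3 and 24.6 CPM in the COPD mice model (log2 fold change 2.28, SE 0.24, adjusted p = 0.0147), and Igkv6-32 (chr6:70074024-70074603), at 1.83 and 1.14 against 13.0 and 13.2 CPM (log2 fold change 3.14, SE 0.35, adjusted p = 0.0160). Both pairs of replicates lay close together. Larger changes with wider spread, such as Igkv14-126 (5.36, SE 0.80, adjusted p = 0.0600), Igkv4-91 (5.20, SE 1.06, adjusted p = 0.201) and Igkv12-89 (4.99, SE 0.94, adjusted p = 0.142), did not pass. DESeq2 and edgeR's exact test did call these genes, among 26 and 27 members and 171 and 210 genes in all. At an unadjusted p under 0.05, 56 members were higher and 0 lower, against 4.68% of all genes higher and 7.7% in either direction, and the median log2 fold change was 2.43 over the 79 and 0.0073 over all genes. Over the 67 members at the minimum level in control libraries, 47 were higher, with a median of 2.25. The number called fell without either library of PBS/control mice and rose without any single library of the COPD mice model. The number called over all genes moved the same way. These fits leave a single library in a group, so their counts are not given.

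On TJ-41, 3 members were called higher in the COPD mice model, where 0.0779% of all genes tested were called. Igkv3-12 rose by a log2 fold change of 3.94 (SE 0.32, adjusted p = 0.00266), Igkv14-100 by 3.18 (SE 0.34, adjusted p = 0.0123) and Igkv4-68 by 2.77 (SE 0.37, adjusted p = 0.0423). The largest fold changes without overlap were again uncalled: Igkv4-58 (6.14, SE 1.49, adjusted p = 0.397), Igkv14-126 (4.54, SE 0.75, adjusted p = 0.108) and Igkv12-89 (4.26, SE 0.91, adjusted p = 0.283). That of Igkv4-58 rested on 1 library, with 26.2 CPM in replicate 1 and 0.614 CPM in replicate 2, and the gene passed the filter only through the COPD mice model, at 0.162 to 0.467 CPM in the control libraries. In all, 43 members were higher at an unadjusted p under 0.05 and 0 lower, against 3.55% of all genes higher and 6.56% in either direction, with a median log2 fold change of 1.87 over the 79 and -0.0016 over all genes. Over the same 67 members, 39 were higher, with a median of 1.88. The number called fell without either library of PBS/TJ-41 mice or without replicate 1 of COPD/TJ-41 mice. It rose without either library of COPD/control mice or without replicate 2 of COPD/TJ-41 mice. The number called over all genes moved the same way, and the counts of these fits, with a single library in a group, are not given. The control libraries of the diets differ, and the 2 comparisons share no library.

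Igkv5-43 and Igkv6-32, called on the control diet, were not called on TJ-41. Their log2 fold changes on TJ-41 were 0.03 (SE 0.23, adjusted p = 0.976) and -0.41 (SE 0.32, adjusted p = 0.785). In PBS/TJ-41 mice they stood at 13.6 and 9.84 CPM and at 7.79 and 4.87 CPM, above both libraries of PBS/control mice. In COPD/TJ-41 mice they stood at 11.6 and 12.4 CPM and at 4.23 and 5.27 CPM, below both libraries of COPD/control mice. The difference between the comparisons was -2.25 (SE 0.34, adjusted p = 0.690) for Igkv5-43 and -3.55 (SE 0.47, adjusted p = 0.643) for Igkv6-32, and neither passed. That difference was called for 0 of the 79 members and for 0.0% of all genes, and 15 members had an unadjusted p under 0.05 against 3.27% of all genes. DESeq2 called 4 members for that difference, of 17 genes called in all. Among them were Igkv5-43 (adjusted p = 8.75e-05) and Igkv6-32 (adjusted p = 1.70e-07). The quasi-likelihood test over all genes of at least 1 count also called both (adjusted p = 0.0462 and 0.00799).

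Usage, the share of each gene in the Igkv counts of a library, was uneven in every library. Shares are of counts and not corrected for length, since the merged annotated exons of a member cover only 338 to 501 bases. Per base of these exons, the leading gene was the same in 8 of 8 libraries, and 9 of the 10 genes with the highest mean share were the same. Mean shares over the 8 libraries were 13.96% for Igkv1-117, 7.58% for Igkv10-96, 6.65% for Igkv1-110, 3.84% for Igkv6-15 and 3.08% for Igkv1-135, and 29 members exceeded 1%. At the low end, 23 members stayed under 0.1% on average.

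The leading gene differed between libraries. Igkv1-110 led in both libraries of PBS/control mice with 9.28% and 10.6%. Igkv1-117 led in 4 libraries: replicate 1 of PBS/TJ-41 mice (21.5%), both libraries of COPD/control mice (22.0% and 16.8%) and replicate 1 of COPD/TJ-41 mice (18.5%). Igkv10-96 led in replicate 2 of PBS/TJ-41 mice (16.2%), and Igkv6-15 in replicate 2 of COPD/TJ-41 mice (10.6%). Counting error is small against these differences: the share of Igkv1-117 had a 95% exact binomial interval of 6.90% to 8.77% in replicate 1 of PBS/control mice and of 21.5% to 22.5% in replicate 1 of COPD/control mice. Reads without molecular identifiers are not independent molecules, so these intervals cover counting error only.

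**Figure D3:**
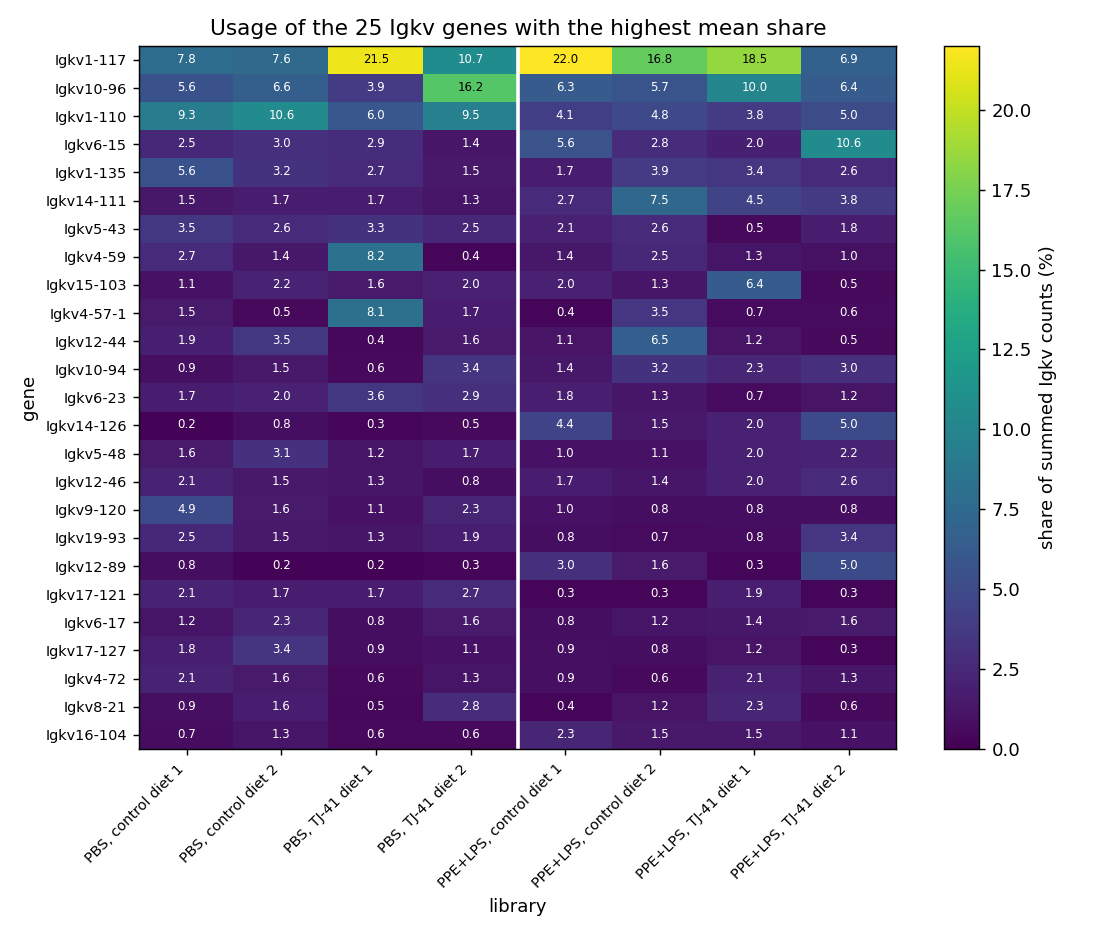
Share (%) of each of the 25 Igkv genes with the highest mean share in the summed Igkv counts of each of the 8 libraries, control libraries to the left of the white line and the COPD mice model (PPE+LPS) to the right. The top row, Igkv1-117, runs from 6.86% to 22.0%, and single high cells are seen for Igkv4-59, Igkv4-57-1, Igkv12-44 and Igkv15-103.

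Few shares separated the COPD mice model from control mice. Of the 100 members, 2 had a higher share in all 4 libraries of the COPD mice model than in all 4 control libraries, and 5 had a lower share. These are 2.0% and 5.0% of the members, and on CPM 2.26% and 2.46% of all genes with a count lay above and below, so that the count above is near the background and the shares are given as a description. Those above were Igkv14-126, with 0.182% and 0.824% in PBS/control mice, 0.319% and 0.526% in PBS/TJ-41 mice, 4.42% and 1.53% in COPD/control mice and 1.98% and 4.97% in COPD/TJ-41 mice, and Igkv14-111, with 1.46%, 1.70%, 1.66% and 1.26% in the control libraries and 2.67%, 7.46%, 4.54% and 3.77% in the COPD mice model. Both were called on CPM as well, a measure that is not independent of the share. Leaving out any single library gave 2 to 4 members above and 6 to 9 below.

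Those below were Igkv1-110, Igkv9-120, Igkv5-45, Igkv2-137 and Igkv4-81. Igkv1-110 had 9.28% and 10.6% of the Igkv counts in PBS/control mice, 6.01% and 9.54% in PBS/TJ-41 mice, 4.10% and 4.82% in COPD/control mice and 3.83% and 4.99% in COPD/TJ-41 mice. Its CPM was nevertheless higher on average in the COPD mice model (56.0 against 24.6), so its share was smaller although its mean level was not. Igkv9-120 had 1.08% to 4.92% in control mice and 0.777% to 1.04% in the COPD mice model. Igkv4-81 rested on 0 to 7 counts a library, and its share cannot be read at this depth.

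The near-identical genes Igkv1-117 and Igkv1-110 can also be read together, so that a split of reads between them does not enter, although both share some 50-base runs with Igkv1-122 as well. Their joint share was 17.1% and 18.2% in PBS/control mice, 27.5% and 20.2% in PBS/TJ-41 mice, 26.1% and 21.6% in COPD/control mice, and 22.3% and 11.8% in COPD/TJ-41 mice. Both libraries of PBS/control mice lay below those of PBS/TJ-41 and COPD/control mice, and within the range of COPD/TJ-41 mice. The ratio of Igkv1-117 to Igkv1-110 counts was 0.840 and 0.715 in PBS/control mice and between 1.12 and 5.36 in the other 6 libraries, so the order of these genes turned between the first group and the rest.

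**Figure D4:**
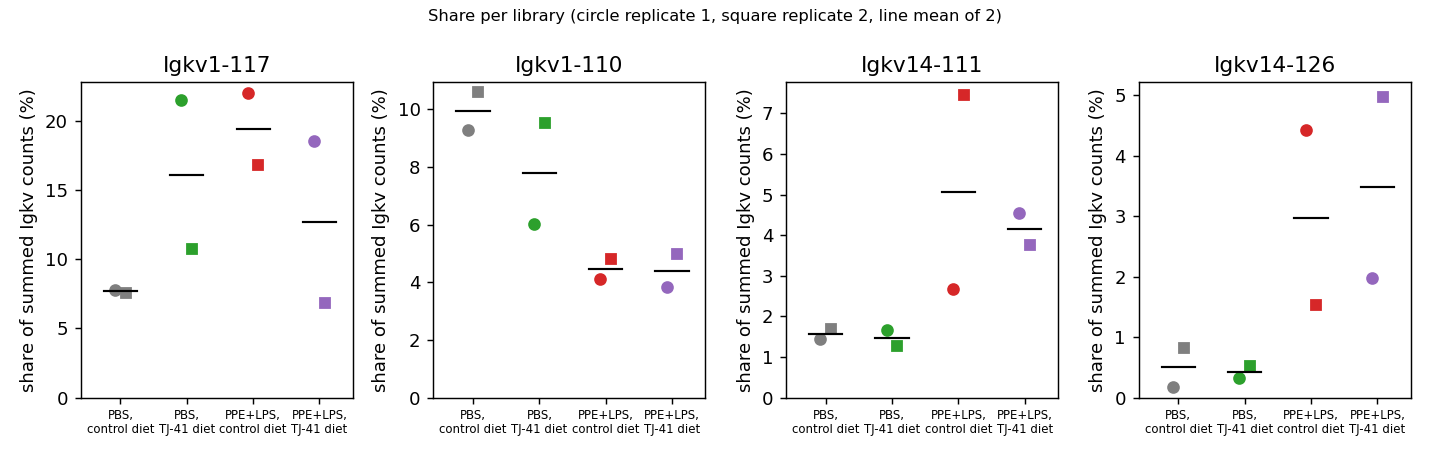
Share (%) of the summed Igkv counts taken by Igkv1-117, Igkv1-110, Igkv14-111 and Igkv14-126 in each library, by group, with circles for replicate 1, squares for replicate 2 and lines for the mean of 2. Each panel has its own axis from 0, and the groups of control mice and of the COPD mice model separate for all but Igkv1-117.

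Some genes were high in 1 library only. In replicate 1 of PBS/TJ-41 mice, Igkv4-59 took 8.23% and Igkv4-57-1 took 8.13%, against at most 2.67% and 3.49% in any other library. Igkv12-44 reached 6.55% and Igkv4-53 3.21% in replicate 2 of COPD/control mice. Igkv15-103 reached 6.42% in replicate 1 of COPD/TJ-41 mice. Igkv1-99 (chr6:68541644-68542422), named here after its values were seen, took 3.38% in replicate 1 of COPD/control mice and at most 0.346% elsewhere. Among the 51 members with a mean share of at least 0.5%, the highest share was more than 3 times the median share for 22.

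Replicates of the same group differed in usage by amounts that varied between groups. The part of usage not shared by 2 libraries (0% for identical shares, 100% for no gene in common) was 20.7% between the libraries of PBS/control mice, 38.3% in PBS/TJ-41 mice, 33.6% in COPD/control mice and 39.7% in COPD/TJ-41 mice. Between a control library and a library of the COPD mice model it was 32.8% to 47.8%, with a median of 37.2%. Of the 16 pairs of different treatment, 0 were closer than the replicates of PBS/control mice, 2 than those of COPD/control mice, 10 than those of PBS/TJ-41 mice and 11 than those of COPD/TJ-41 mice. In CPM, the median absolute log2 difference between replicates over the 79 tested members was 0.63 in PBS/control, 0.79 in PBS/TJ-41, 1.02 in COPD/control and 1.83 in COPD/TJ-41 mice. Over all genes tested it was 0.24, 0.18, 0.47 and 0.15 in the same order.

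Evenness of usage was highest in PBS/control mice. The effective number of genes (the exponential of the Shannon entropy, which would be 100 if all members were used equally) was 48.2 and 46.3 there, 29.9 and 35.0 in PBS/TJ-41 mice, 33.1 and 34.0 in COPD/control mice and 34.0 and 39.3 in COPD/TJ-41 mice. Both libraries of the first group lay above the other 6. PBS/control mice stayed highest when each library was thinned to 3296 Igkv counts (48.2 and 46.2 against 29.7 to 38.9) and when the leading gene of each library was left out (group means of 50.5, 39.99, 42.7 and 41.8 in the order above), whereas the order of the COPD groups turned in the latter case. The 10 leading genes of a library took 46.4% and 46.0% of its Igkv counts in PBS/control mice and 52.3% to 62.7% in the other libraries.

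By family, Igkv1 took the largest part of usage, with a mean of 26.0% over the 8 libraries from 10 members, followed by Igkv4 with 14.4% from 26 members, Igkv6 with 10.7% from 9 and Igkv10 with 9.74% from 3. The Igkv14 family, with 4 members, was the family whose share was higher without overlap, from 2.76%, 4.17%, 2.33% and 2.02% in the control libraries to 7.48%, 9.57%, 7.004% and 10.4% in the COPD mice model. All 3 of its tested members were called on CPM over both diets, where 17 of the 79 members and 0.443% of all genes tested were called. The Igkv5 and Igkv9 families had lower shares without overlap, with means of 6.86% and 3.25% in control mice and of 4.09% and 1.29% in the COPD mice model. Their CPM did not fall: the median log2 fold change was 1.05 over the 4 tested Igkv5 members and 0.97 over the 3 tested Igkv9 members. The shares of all other families overlapped. Each family that separated includes a member whose own share separated in the same direction, so its sum is not a separate observation. Of single members, 2.0% lay above in share and 5.0% below, and the family shares are likewise given as a description. No family was tested as a set.

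Along the locus, the end far from the joining genes held the largest part of usage, most of it in 3 genes. The 25 members farthest from Igkj1 (2180 to 3166 kb) took 31.8% to 47.6% of the Igkv counts of a library, with a mean of 40.6%, and the nearest 25 (18.4 to 583 kb) took 13.0% to 24.0%, with a mean of 18.3%. The farthest 25 had 39.0% ± 2.86 in the control libraries and 42.1% ± 7.10 in the COPD mice model (SD, n = 4). The difference was smaller than the SD in the COPD mice model, though not than that in the control libraries. The 38 members on the plus strand took 39.3% to 54.8%. Igkv1-117, Igkv1-110 and Igkv1-135, on the plus strand and among the farthest 25, took 23.7% on average. The other 22 of the farthest members took 16.9%, less than the nearest 25.

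**Figure D5:**
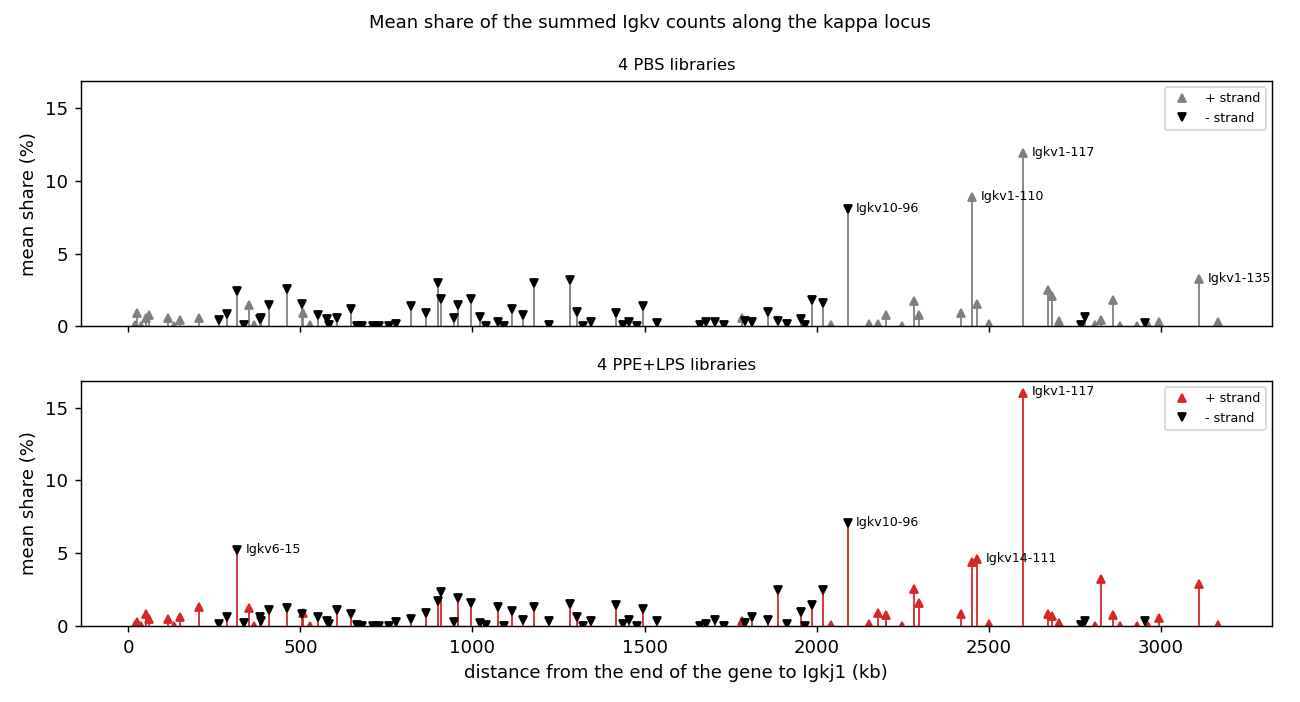
Mean share (%) of each Igkv gene in the summed Igkv counts against its distance to Igkj1 in kb, for the 4 control libraries (top) and the 4 libraries of the COPD mice model (bottom), with triangles up for the plus strand and down for the minus strand. The tall lines of Igkv1-117, Igkv1-110 and Igkv10-96 stand in the far part of the locus in both panels, and Igkv6-15 and Igkv14-111 stand out in the lower panel only.

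Between the diets, control mice showed higher Igkv levels on TJ-41 without a call. In control mice 0 of the 79 members and 0.0% of all genes were called by edgeR's quasi-likelihood test, with a smallest adjusted p of 0.996 over the members. DESeq2 and edgeR's exact test called 2 members each, of 10 and 6 genes called in all. At an unadjusted p under 0.05, 14 members were higher on TJ-41 and 1 was lower, against 1.1% of all genes higher and 1.64% in either direction. The median log2 fold change was 0.69 over the 79 members and -0.0018 over all genes. Both libraries on TJ-41 lay above both on the control diet for 30 of the 79, against 19.1% of all genes. The largest changes without overlap were Igkv6-14 (3.79, SE 1.68), Igkv4-57-1 (3.45, SE 1.05) and Igkv4-91 (2.91, SE 1.07). Igkv4-57-1 stood at 2.67 and 1.04 CPM on the control diet and at 34.0 and 6.54 CPM on TJ-41. The lower member was Igkv14-100, with 1.83 and 2.91 CPM on the control diet and 1.43 and 0.919 CPM on TJ-41.

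In the COPD mice model, Igkv3-12 (ENSMUSG00000094117, chr6:70518250-70518849) was the only gene of all genes tested that was called between the diets, which is 0.00487% of them. It stood at 1.31 and 1.14 CPM in PBS/control mice, 1.84 and 2.00 in PBS/TJ-41 mice, 2.14 and 2.72 in COPD/control mice, and 36.6 and 22.5 in COPD/TJ-41 mice. Both libraries of COPD/TJ-41 mice were thus above the other 6. The log2 fold change for TJ-41 was 3.60 (SE 0.31, adjusted p = 0.0188) in the COPD mice model and 0.65 (SE 0.34, adjusted p = 0.996) in control mice, and the difference between these changes did not pass (2.95, SE 0.45, adjusted p = 0.690). That difference depended on the fit. It was called by DESeq2 (adjusted p = 0.000232) and by the quasi-likelihood test over all genes of at least 1 count (adjusted p = 0.0361). The call in the COPD mice model was lost in 7 of 18 alternatives: the replicate block (adjusted p = 0.0896), the fit to the 2 groups alone (adjusted p = 1.00), and leaving out any control library (adjusted p from 0.107 to 0.138) or replicate 1 on TJ-41 (adjusted p = 0.163). Igkv3-12 shared 58.4% of its 50-base runs with other transcripts.

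The other 78 tested members were not called in the COPD mice model, and they pointed both ways. At an unadjusted p under 0.05, 13 of them were higher and 7 lower on TJ-41, against 2.0% of all genes higher and 4.1% in either direction. Both libraries on TJ-41 lay above both on the control diet for 10 and below for 8, against 14.1% and 14.9% of all genes. The median log2 fold change was 0.19 over the 78 members and -0.015 over all genes. Igkv4-69 (3.05, SE 0.81, adjusted p = 0.991) and Igkv4-61 (2.65, SE 0.99, adjusted p = 0.991) had the next largest changes without overlap. Igkv4-69 had 0.313 and 0.154 CPM on the control diet and 0.678 and 3.27 CPM on TJ-41, and it passed the filter only through the latter 2 libraries, so its rank is set in part by the filter. More members were called without either library of COPD/control mice, some of them higher and some lower on TJ-41, and without replicate 2 on TJ-41. In each of these fits more genes were called in all. They leave a single library in a group, so their counts are not given. With both treatments together, 0 members and 0.0% of all genes were called for TJ-41, with a smallest adjusted p of 0.111, and 14 members had an unadjusted p under 0.05 against 2.48% of all genes. DESeq2 called 2.

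The other parts of the kappa chain were also read. Igkc, the constant gene, stood at 134 and 147 CPM in PBS/control mice, 277 and 209 in PBS/TJ-41 mice, 929 and 1604 in COPD/control mice, and 1506 and 445 in COPD/TJ-41 mice (log2 fold change over both diets 2.59, SE 0.36, adjusted p = 0.0182). Of the 6 constant and joining genes tested, 2 were called, Igkc and Igkj5, and the median log2 fold change was 1.70. The Igkv counts were 1.29 to 1.87 times the Igkc counts in 7 libraries. In the replicate 2 library of COPD/control mice the ratio was 0.588, where Igkc was highest and Igkv was not, while its ratio of Igkv to Igkj counts (18.4) lay within the range of the other libraries (11.6 to 21.3).

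Most heavy chain constant genes and the J chain, which links antibody units into polymers, rose as well: of 8 tested, 6 were called higher over both diets (Ighm, Ighg1, Ighg2b, Ighg2c, Ighg3 and Jchain), with a median log2 fold change of 3.52 over the 8. The uncalled genes were Igha (log2 fold change 1.97, SE 0.44, adjusted p = 0.121) and Ighd (log2 fold change -0.59, SE 0.23, adjusted p = 0.410). Jchain stood at 43.3 and 63.3 CPM in PBS/control mice, 201 and 185 in PBS/TJ-41 mice, 803 and 521 in COPD/control mice, and 895 and 314 in COPD/TJ-41 mice (log2 fold change 2.64, SE 0.32, adjusted p = 0.00969). For the lambda light chain, the alternative to kappa, 0 of 8 tested genes were called, with 6 at an unadjusted p under 0.05 and a median of 1.29.

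General B cell markers did not move in the same direction. Of 14 tested, 0 were called and 0 had a positive log2 fold change over both diets, with 3 at an unadjusted p under 0.05 and a median of -0.44. Summed, they stood at 554 to 588 CPM in the 4 control libraries and at 304 to 611 CPM in the COPD mice model, where the lowest was the replicate 2 library on the control diet. Cd79a, a signalling partner of the B cell receptor, lay between 19.6 and 34.4 CPM. The summed Igkv CPM per Cd79a CPM was 5.01 and 5.52 in PBS/control mice, 15.9 and 16.6 in PBS/TJ-41 mice, 54.7 and 35.8 in COPD/control mice, and 82.3 and 35.6 in COPD/TJ-41 mice. Of 12 plasma cell genes tested, several of which other lung cells also express, 0 were called, with 3 at an unadjusted p under 0.05 and a median of 0.12. Tnfrsf17, the receptor BCMA of plasma cells, had 0.105 to 1.83 CPM and a log2 fold change of 1.32 (SE 0.54, adjusted p = 0.443).

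Markers of other cells that a lung sample could hold were also read. Of 12 T cell genes tested 0 were called, with 6 at an unadjusted p under 0.05 and a median of 0.38, and of 7 germinal centre genes 0 were called, with 0 at an unadjusted p under 0.05 and a median of 0.0098. Among genes of V(D)J recombination and B cell precursors, 0 of 4 tested were called, with 1 at an unadjusted p under 0.05. That gene was Vpreb3, a gene of the B lineage, at 10.97 to 12.7 CPM in the control libraries and 20.1 to 29.3 CPM in the COPD mice model, without overlap. Its adjusted p was under the threshold (log2 fold change 0.95, SE 0.16, adjusted p = 0.0428), and it was not called because its fold change stayed under the minimum. Rag2 had no count in any library and Rag1 at most 0.314 CPM. Madcam1 and Glycam1, which mark the vessels of lymph nodes and gut lymphoid tissue, were at 0 or close to it, at no more than 0.103 CPM. The lymphoid stroma list had 0 of 5 tested genes called (median -0.046) and the lung epithelium and endothelium list 0 of 10 (median 0.037), with 1 gene each at an unadjusted p under 0.05. The part of any of these cells in the Igkv levels was not tested.

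The genes outside Igkv whose log2 CPM was most like that of the summed Igkv level over the 8 libraries were Ighj1 (Pearson's r 0.989), Prg2, which encodes eosinophil major basic protein (0.988), Igkj5 (0.986), Jchain (0.983) and Igkj1 (0.980), followed by Ighg2b, Ighv11-2, Gm47508, Igkj4 and Ighj2 (0.978 to 0.968). The values of r are a description, since the points share the split between control mice and the COPD mice model.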

How the data were processed

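Lung RNA of 8 libraries, 2 in each of 4 groups, was analysed, with groups and replicate numbers taken from the sample labels, which give the diet as TJ41 or TJ4. The authors deposited raw read counts per Ensembl gene, without normalization, in whole numbers. The submitters' processing notes name HISAT2, edgeR and the build mm10, and the study's methods name CLC Genomics Workbench. The counting program, annotation release, strand setting and treatment of reads matching several genes are not given in the sources used here, and near-identical Igkv genes could exchange reads. Of 52636 genes, 52489 matched GENCODE M21 (GRCm38), which gave symbols, gene types and coordinates.

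Counts were fitted with edgeR 4.0.16 (limma 3.58.1, R 4.3.3) over all genes kept by filterByExpr (minimum count 10, minimum total 15), with TMM normalization, group means, 4 residual degrees of freedom and the quasi-likelihood test. A call needed a log2 fold change beyond 1 and a Benjamini-Hochberg adjusted p under 0.05. The steps were tested on simulated data. CPM used TMM effective library sizes. Library totals of 18767295 to 20888042 set the precision, and intervals of shares are 95% exact binomial intervals. Replicates were no copies of each other. Same-numbered libraries of different groups did not deviate together (correlations of replicate differences from -0.234 to 0.108), so the numbers were not used as a block.

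The members and gene lists were chosen with earlier results of these data known. Igkv genes were named if among the 10 with the highest mean share, leading in a library, called in a comparison, or among the 3 with the largest fold change without overlap between libraries in a comparison, and the genes named below in share without overlap, the untested Igkv3-1 and Igkv14-130, and genes high in 1 library were added after their values were seen. Genes of the lists were named where called or highly expressed, and others as examples after their values were seen. Alternatives were other normalizations, filters, DESeq2 1.42.0, edgeR's exact test, only the groups compared, a replicate block, no fold threshold and leaving out each library. The sum over members that share no 50-base run was added after the data were seen.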

Additional observations from a re-analysis of the deposited data

Results flagged for a closer look

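The 60 Igkv genes annotated as pseudogenes, which were left out of the members, gave a signal that was higher in COPD/control mice than in PBS/control mice. Their summed level was 0.680 and 0.986 CPM in PBS/control mice, 1.64 and 1.46 CPM in PBS/TJ-41 mice, and 3.55 and 3.33 CPM in COPD/control mice (mean 3.44 CPM), with 4.49 and 1.23 CPM in COPD/TJ-41 mice, of which the lower value lay below both libraries of PBS/TJ-41 mice. It was flagged as a signal outside the main measurement that lay above the control level. In counts these were 13 to 86 a library. Relative to the Igkv total they were lower in the COPD mice model, at 0.176% to 0.352% against 0.373% to 0.519% in control mice, and how reads shared with functional Igkv genes were counted was not tested.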

How the results depend on the processing

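Of 54 named fold changes that were refitted, 1 reversed: that of Igkv5-43 between COPD and PBS on TJ-41 (0.03, not called) ranged from -0.19 to 0.29 without single libraries, with -0.19 without replicate 2 of PBS/TJ-41 mice and -0.013 without replicate 2 of COPD/TJ-41 mice. The numbers of Igkv genes called depended on the settings. For COPD against PBS on the control diet, on TJ-41 and over both diets, the numbers were 2, 3 and 17 as reported, 25, 21 and 47 with all genes of at least 1 count, and 26, 22 and 39 with DESeq2. The genes called in all were 25, 16 and 91 as reported. They were 147, 89 and 278 with all genes of at least 1 count, and 171, 125 and 245 with DESeq2. With edgeR's exact test the first pair was 27 and 26, of 210 and 137 genes in all. With only the groups compared it was 4 and 21, of 19 and 248 genes in all. For TJ-41 in control mice (0 as reported), DESeq2 gave 2, the exact test 2 and only the groups compared 3, of 10, 6 and 5 genes in all. For TJ-41 in the COPD mice model (1 as reported), they gave 3, 2 and 0, of 12, 6 and 0 genes in all. For TJ-41 over both treatments and for the difference of the diet effects (0 each), all genes of at least 1 count gave 1 and 3 and DESeq2 gave 2 and 4. The genes called in all were 1 and 6 with the former and 5 and 17 with DESeq2. Fewer libraries enter the fits to only the groups compared, and other genes enter with all genes of at least 1 count. DESeq2 and the exact test used the same genes as reported. The cause of the differing numbers was not tested.

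With single libraries left out, where the lone library of a group is assumed to vary like the others, the ranges were 0 to 29, 0 to 18 and 1 to 44 for COPD against PBS on the control diet, on TJ-41 and over both diets, 0 to 8 and 0 to 9 for TJ-41 in the COPD mice model and over both treatments, and 0 to 5 for the difference. The replicate block, which the data do not call for, gave 3, 3 and 14 for the COPD mice model and 0 for TJ-41 in the COPD mice model, and moved no other count by more than 1.5 times.

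The log2 ratio of summed Igkv CPM for TJ-41 in control mice (1.16) was 1.02 without Igkv1-117 and 0.75 over the members that share no 50-base run. Leaving out single libraries gave -0.76 to 0.91 in the COPD mice model and -0.44 to 1.10 over both treatments. The effective numbers of genes (47.2, 32.4, 33.5 and 36.6 in the groups in turn) were 50.5, 39.99, 42.7 and 41.8 without the leading gene of each library and 29.7, 15.7, 16.6 and 21.2 as inverse Simpson index. The share of Igkv1-117 in PBS/control mice (7.69%) was 9.58% without the members over 50% shared. Depth limits the least used members.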
